A study of Mus musculus with 4 samples.

Results

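Mucin-type and terminal glycosyltransferases are the Golgi enzymes that start, branch, lengthen and cap the sugar chains of mucins and other glycoproteins. Here they were taken as every non-control probe whose gene name on the array begins with Galnt, Fut, St3gal, St6gal, B3galt, B3gnt, B4galt, Gcnt or C1galt. That gave 115 of 41174 probes, under 65 gene names, and 42 of these genes were measured well enough to be tested, out of 15538 genes tested in all. RNA came from freshly isolated crypts of the small intestine of 2 mice and from organoids, closed epithelial structures grown from part of the same crypts for 1 week in Matrigel. The growth factors in the culture were Noggin at 100 ng/ml, R-spondin at 500 ng/ml and EGF at 10 to 50 ng/ml. EDTA at 2 mM and a 70 µm strainer are also recorded for all 4 arrays. Neither group carried any further treatment named in the labels. Strain, genotype, sex and age of the mice are not given in the sources used here. Crypt and organoid RNA of a mouse were hybridised together on 2 Agilent arrays with Cy3 and Cy5 exchanged, so the 4 arrays give 8 channels, 4 of crypt and 4 of organoid RNA. Both arrays of a mouse carry the same pair of RNAs and count as 1 replicate, which leaves n = 2 mice.

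Building a mucin-type sugar chain begins when a GALNT enzyme places N-acetylgalactosamine on a serine or threonine. C1GALT1, helped by its chaperone COSMC (gene C1galt1c1), adds galactose to make core 1, and GCNT enzymes add the branches. B3GNT and B4GALT enzymes then alternate to build lactosamine chains, and B3GALT enzymes add galactose in the other linkage. Fucosyltransferases (FUT) and sialyltransferases (ST3GAL, ST6GAL and ST6GALNAC) end the chains and form blood group and Lewis antigens. In the intestine these chains make up most of the mass of the mucins. The chains are found in the mucus and in the glycocalyx on the microvilli, where bacteria and their toxins bind.

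The median signal of an array lay between 161 and 178 for Cy3 and between 266 and 312 for Cy5. A crypt channel had 53.7% to 67.1% of its probes well above background, an organoid channel 51.4% to 61.6%. Both groups are labelled as epithelial, and Vil1, which encodes the brush border protein villin, was well above background in 4 of 4 crypt and 4 of 4 organoid channels. Vil1 was lower in organoids, with a log2 ratio of organoid over crypt of -1.56 (limma adjusted p = 0.00483). The array files come from 1 slide and 1 scan time, so neither of these separates the arrays. Other batches, such as in RNA isolation or labelling, were not examined. Values below are log2 ratios of organoid over crypt, given as the mean of the mice ± SD (n = 2). A gene passed when limma's Benjamini-Hochberg adjusted p over all genes tested was under 0.05.

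The genes that passed and were lower in organoids were the fucosyltransferase Fut4, the sialyltransferase St3gal4, the initiating enzymes Galnt6 and Galnt12 and the galactosyltransferase B3galt5. The sialyltransferase St3gal6 was the only one of the 42 that passed and was higher. In all, 6 of 42 passed (14.3%), beside 10.9% of all genes tested. Of these, 1 was higher, beside 5.43% of all genes, and 5 were lower, beside 5.49%. Their median log2 ratio was -0.06, with -0.06 in mouse 1 and -0.10 in mouse 2, beside 0.02 for all genes. Without loess, centring each array on its median raised the median of all genes by 0.142, to a value of 0.167. The members' median then became 0.05, which is -0.11 relative to all genes, against -0.08 in the chosen processing. Both mice moved in the same direction for 31 of the 42 genes (73.8%, beside 68.9% of all genes), downwards for 21 and upwards for 10. On all 4 arrays the direction was the same for 20 genes, among them each of the 6 that passed. The share over all genes was not counted, and agreement among the 6 follows largely from the test that chose them. The same holds for the separation of their crypt and organoid intensities given below, which is no further support. How many passed depended on the processing: 0 with arrays centred on the median, 2 with the scanner's own ratios, 3 with the authors' matrix, 1 without the filter on dim probes and 3 with the organoid in Cy3 alone. Each of the 6 kept its direction under all 11 alternative settings, which reuse the same arrays and so are no independent support. The mean ratio lay within 0.5 of 0 on the log2 scale for 33 of the 42 genes, beside 12643 of all 15538.

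**Figure D1:**
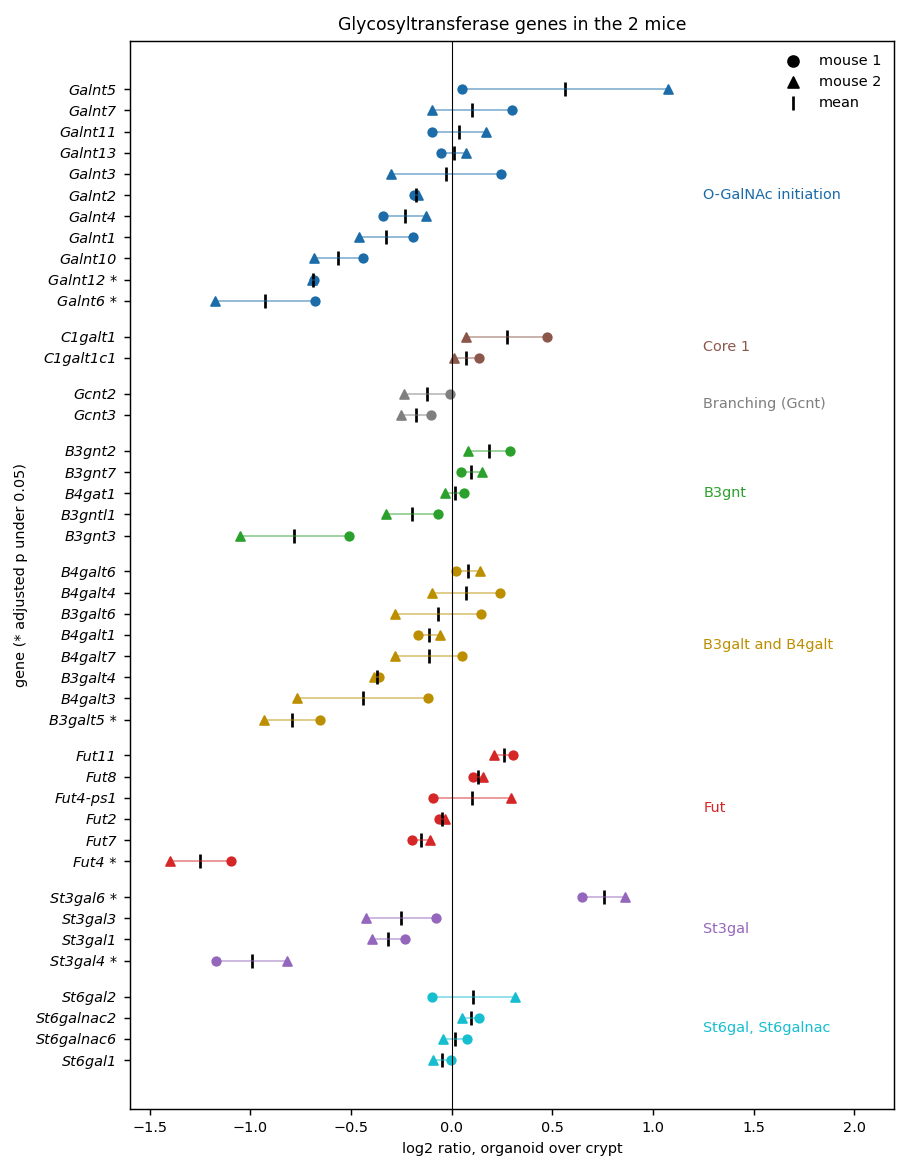
Log2 ratio of organoid over crypt for each of the 42 glycosyltransferase genes tested, by family, with mouse 1 as circles, mouse 2 as triangles and their mean as a black bar. Asterisks mark the 6 genes with an adjusted p under 0.05, of which 5 lie left of 0 and St3gal6 lies right of it.

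For the 36 genes that did not pass, the data limit how large a change could have been missed. The 95% interval of the fit reached 0.326 to 0.66 on the log2 scale to either side of the mean over the 42 genes, with a median of 0.349. In 34 of these 36 genes the interval excluded a 2-fold difference in either direction in the chosen processing. The other 2 were B3gnt3, with an interval from -1.23 to -0.34, and Galnt5, with one from -0.09 to 1.22. The intervals leave out the choice of processing itself. An offset of 50 was added to the signals, which pulls the ratios of dim probes towards 0. For dim genes a 2-fold difference is therefore excluded only for these compressed ratios.

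Of the 6 genes that passed, 5 have a promoter in RefSeq's table for GRCm38.p6, which holds 250 bases before and 50 after each annotated start. Those of Fut4, which had the lowest ratio of the 42, and of the sialyltransferase pair St3gal4 and St3gal6, which moved in opposite directions, are printed here 5′ to 3′ on the strand of the gene. Capitals mark the GC box GGGCGG on either strand, the sequence to which SP1 family factors bind. The TATA box TATAAA was also searched on both strands, and the letters of one motif cannot overlap those of the other.
Fut4, chr9:14752073-14752372, minus strand: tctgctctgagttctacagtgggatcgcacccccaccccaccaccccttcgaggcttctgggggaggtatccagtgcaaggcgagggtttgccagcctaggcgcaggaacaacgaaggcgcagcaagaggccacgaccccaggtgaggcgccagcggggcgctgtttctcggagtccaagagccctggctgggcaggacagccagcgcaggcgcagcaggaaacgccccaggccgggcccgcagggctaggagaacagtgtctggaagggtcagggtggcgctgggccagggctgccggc
St3gal4, chr9:35116815-35117114, minus strand: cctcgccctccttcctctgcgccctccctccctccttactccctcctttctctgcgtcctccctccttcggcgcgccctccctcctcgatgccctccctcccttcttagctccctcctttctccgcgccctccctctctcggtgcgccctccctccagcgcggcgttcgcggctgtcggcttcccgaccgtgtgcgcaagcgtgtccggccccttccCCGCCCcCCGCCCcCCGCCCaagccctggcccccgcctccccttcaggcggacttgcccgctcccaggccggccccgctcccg
St3gal6, chr16:58523377-58523676, minus strand: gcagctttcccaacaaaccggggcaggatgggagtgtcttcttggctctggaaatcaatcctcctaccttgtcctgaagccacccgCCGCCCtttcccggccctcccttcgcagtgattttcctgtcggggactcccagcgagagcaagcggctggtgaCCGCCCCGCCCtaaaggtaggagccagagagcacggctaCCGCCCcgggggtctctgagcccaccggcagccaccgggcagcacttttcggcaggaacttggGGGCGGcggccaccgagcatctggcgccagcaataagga
St3gal6, chr16:58524204-58524503, minus strand: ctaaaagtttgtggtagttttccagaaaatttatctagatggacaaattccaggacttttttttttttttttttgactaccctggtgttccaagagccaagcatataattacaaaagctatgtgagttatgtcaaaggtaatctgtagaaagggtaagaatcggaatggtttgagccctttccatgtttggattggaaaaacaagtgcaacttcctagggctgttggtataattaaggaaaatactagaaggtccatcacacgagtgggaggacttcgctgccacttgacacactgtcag
The Fut4 window held 0 GC boxes at a GC content of 68.0%. In the St3gal4 window there were 3, placed one after another, at a GC content of 74.0%. The annotated starts of St3gal6 differ: one window held 5 GC boxes at 64.7% GC, and the other 0 at 38.7% GC. Neither motif is rare or specific here, since GGGCGG occurred in 35.7% of the 32851 promoters of this length and TATAAA in 13.6%. Among the 67 promoters listed for 48 of the 65 glycosyltransferase names, 35 held the GC box (52.2%) and 1 held the TATA box (1.49%). These matches describe letters in a window and not binding.

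The GALNT family, which chooses the sites at which mucin-type chains start, had 17 names on the array, of which 11 were tested. Galnt6 and Galnt12 were lower in organoids, 0 were higher and 9 did not pass. Its median was -0.18 (-0.19 in mouse 1 and -0.16 in mouse 2), which became 0.07 when arrays were centred on the median without loess, or -0.10 relative to all genes. Galnt6, a close relative of Galnt3, had crypt log2 intensities of 13.03 in mouse 1 and 13.07 in mouse 2. Its organoid log2 intensities were 12.36 and 11.89. The organoid values lay below both crypt values, with the larger drop in mouse 2. Its log2 ratio was -0.68 in mouse 1 and -1.18 in mouse 2, a mean of -0.93 ± 0.35 (SD, n = 2; adjusted p = 0.0312) or 1.90-fold lower. The 4 arrays gave -0.79 and -0.56 for mouse 1 and -1.37 and -0.98 for mouse 2, with the organoid in Cy5 named first. A second Galnt6 probe gave -0.86, with -0.45 and -1.28 in the mice. Averaging both probes moved the adjusted p to 0.0501, and Galnt6 passed in 5 of 11 alternative settings. The representative probe lies at chr15:100522618-100522677 in mm9.

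Galnt12 had the most alike values in both mice of the genes that passed. Crypt log2 intensities were 13.41 and 13.43 and organoid log2 intensities 12.72 and 12.73, so the groups did not overlap. Its log2 ratio was -0.69 in mouse 1 and -0.70 in mouse 2 (mean -0.69 ± 0.01, adjusted p = 0.0328), which is 1.61-fold lower. The dye orientations differed more than the mice did, with -0.57 on both arrays that had the organoid in Cy5 against -0.80 and -0.82 on those with it in Cy3. It passed in 6 of 11 alternative settings, and its ratio was -0.38 with arrays centred on the median. GALNT12 prefers peptides that already carry a sugar. So does GALNT10, whose gene gave -0.44 in mouse 1 and -0.68 in mouse 2 (mean -0.56 ± 0.17) and missed the threshold at an adjusted p of 0.0669. Galnt10 passed with the organoid in Cy5 alone (adjusted p = 0.0392), with a dye effect fitted to 4 arrays (0.0184) and with a random block for the mouse (0.0223). The last 2 fits take arrays as units, although the arrays of a mouse share their RNA. Of all genes, 23.9% passed with the dye effect and 19.8% with the random block. A second Galnt10 probe gave -0.71.

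Galnt5 was the highest of the family and the gene in which the mice disagreed most. Its log2 ratio was 0.05 in mouse 1 and 1.08 in mouse 2, a mean of 0.56 ± 0.72 that did not pass (adjusted p = 0.24). In mouse 1 the arrays gave 0.15 and -0.04, and in mouse 2 they gave 1.43 and 0.72. Both arrays of a mouse thus lay on the same side of the other mouse's arrays. The broadly expressed Galnt1 (-0.33 ± 0.19) and Galnt2 (-0.18 ± 0.02), and Galnt3 (-0.03 ± 0.39) and Galnt4 (-0.23 ± 0.15), did not pass. For Galnt3 the mice pointed in opposite directions, 0.24 and -0.30, and its other tested probes gave -0.07 and -0.42. Galnt7 (0.10 ± 0.28) had a second probe of the opposite sign at -0.02. Galnt11 and Galnt13 lay at 0.04 and 0.01. Galnt9, Galnt14, Galntl5 and the genes now called Galnt15, Galnt16 and Galnt18 (Galntl2, Galntl1 and Galntl4 on the array) were well above background in 0 of 8 channels on every probe and were not tested.

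**Figure D2:**
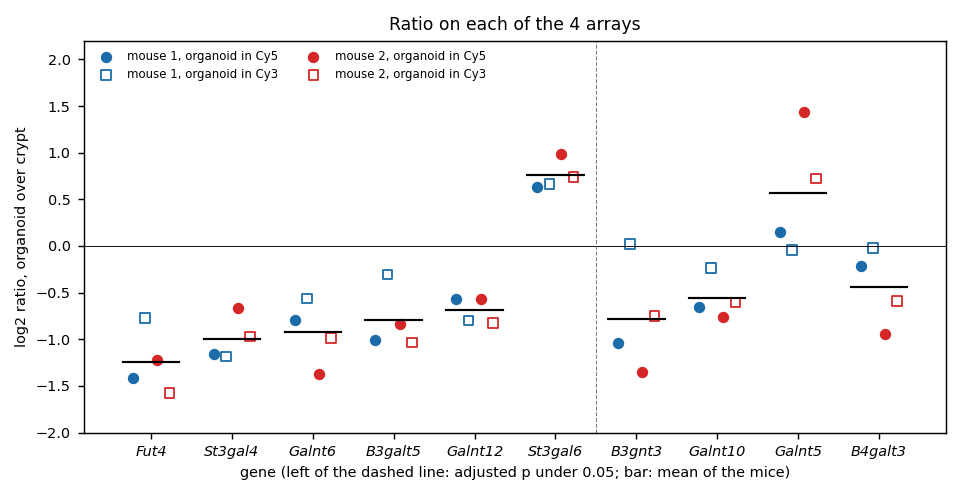
Log2 ratio of organoid over crypt on each of the 4 arrays for the 6 genes that passed (left of the dashed line) and for B3gnt3, Galnt10, Galnt5 and B4galt3, with filled circles for the organoid in Cy5, open squares for the organoid in Cy3, blue for mouse 1, red for mouse 2 and a bar for the mean. The 4 arrays fall on the same side of 0 for each gene that passed, whereas B3gnt3 reaches 0.02 on 1 array and the Galnt5 arrays split by mouse.

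The next step, synthesis of core 1, was measured for both of its genes and neither passed. C1galt1, the core 1 synthase, gave 0.48 in mouse 1 and 0.07 in mouse 2 (mean 0.27 ± 0.29, adjusted p = 0.333), and a second probe gave the opposite sign at -0.08. Its chaperone gene C1galt1c1 gave 0.07 ± 0.09, with 0.13 on a second probe. Among the branching enzymes, Gcnt3, which makes the core 2 and core 4 branches of mucins, gave -0.18 ± 0.11. Gcnt2, which branches lactosamine chains into the I antigen, gave -0.12 ± 0.16. Neither passed, and Gcnt1 was not tested, with at most 3 of 8 channels above background on any of its 3 probes.

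Of the 8 names in the B3GNT group, which add N-acetylglucosamine to lengthen chains, 5 were tested and 0 passed. B3gnt3, the enzyme that extends core 1, came closest. Its log2 ratio was -0.51 in mouse 1 and -1.05 in mouse 2, a mean of -0.78 ± 0.38 at an adjusted p of 0.0536. On 3 of its arrays it gave -1.04, -1.35 and -0.75, and the array of mouse 1 with the organoid in Cy3 gave 0.02. It passed under 4 of 11 alternative settings, with adjusted p between 0.00696 and 0.0497. Among them was the dye effect fitted to 4 arrays (adjusted p = 0.0235), which takes arrays as units. B3gnt2, the main enzyme of lactosamine extension, was the highest of the group at 0.19 ± 0.15, and gave -0.00 with the organoid in Cy3 alone. B3gnt7, which acts on keratan sulfate, gave 0.10 ± 0.07, and B3gntl1 gave -0.20 ± 0.18. The gene listed as B3gnt1 on the array is now B4gat1, a glucuronyltransferase of dystroglycan, and gave 0.02 ± 0.07. B3gnt4, B3gnt5 and B3gnt8 were not tested.

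The galactosyltransferases had 12 names, 8 tested genes and 1 that passed, B3galt5, which was lower. B3GALT5 makes the type 1 chain on which the Lewis a and Lewis b antigens are built. Crypt log2 intensities of B3galt5 were 8.63 in mouse 1 and 8.82 in mouse 2, and organoid log2 intensities were 7.98 and 7.88. Both organoid values lay below both crypt values, which follows largely from the test that chose the gene. The log2 ratio was -0.65 and -0.93 in the mice, a mean of -0.79 ± 0.20 (adjusted p = 0.0300) or 1.73-fold lower. Across arrays it ranged from -1.03 to -0.31, and the highest was that of mouse 1 with the organoid in Cy3. B3galt5 passed in 8 of 11 alternative settings, and its log2 ratio was -1.50 with the scanner's own ratios and -1.52 in the authors' matrix, lower there than that of every member but Fut4. The probe lies at chr16:96541339-96541398 in mm9.

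No other gene of the galactosyltransferases passed. B3galt4, which acts on gangliosides, was lower by a similar amount in both mice (-0.36 and -0.38, mean -0.37 ± 0.02) at an adjusted p of 0.139. It passed with a random block for the mouse (adjusted p = 0.0452) and with a dye effect fitted to 4 arrays (0.0362), both of which take arrays as units. B4galt3 gave -0.12 in mouse 1 and -0.77 in mouse 2 (mean -0.44 ± 0.46, adjusted p = 0.22), and its second probe gave -0.09. B4galt1, which builds the lactosamine of N-glycans, gave -0.11 ± 0.08 on its brightest probe. Another probe of it gave -0.12 in mouse 1 and 0.69 in mouse 2. On average over the mice that probe differed from the brightest by 0.397, the largest such gap among the tested probes of any member. B4galt6, an enzyme of lactosylceramide synthesis, was the highest of the family at 0.08 ± 0.08, and turned below 0 with the organoid in Cy5 alone. B4galt4 gave 0.07 ± 0.24. B3galt6 (-0.07 ± 0.30) and B4galt7 (-0.11 ± 0.24), which build the linker of proteoglycans, each had mice of opposite sign. The family median was -0.11 (-0.05 in mouse 1 and -0.28 in mouse 2), and 0.07 when arrays were centred on the median without loess, or -0.10 relative to all genes.

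Among the fucosyltransferases, 9 names were on the array, 6 genes were tested and Fut4 alone passed. FUT4 makes the Lewis x antigen, known on leukocytes as CD15. Its crypt log2 intensities were 9.70 in mouse 1 and 10.03 in mouse 2, and its organoid log2 intensities were 8.60 and 8.63. Organoids of both mice were close to each other and well below either crypt sample. The log2 ratio was -1.10 and -1.40 in the mice, a mean of -1.25 ± 0.22 (adjusted p = 0.0098), which is 2.37-fold lower. It was the only one of the 42 with a change of 2-fold or more in the chosen processing, whereas B3galt5 (-1.52), B3gnt3 (-1.20), Galnt6 (-1.08), St3gal4 (-1.08) and St3gal6 (1.01) each reached it under at least 1 alternative setting. Only 2.21% of the genes tested had a ratio this low or lower. The arrays gave -1.42 and -0.77 for mouse 1 and -1.23 and -1.57 for mouse 2. It kept its call in 9 of 11 alternative settings and lost it with median centring (adjusted p = 0.214) and with the organoid in Cy3 alone (adjusted p = 0.0595). Fut4 is represented by 1 probe, at chr9:14553224-14553283 in mm9.

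FUT4 is also made by myeloid cells, so the markers of white blood cells were read beside it. Of 12 such genes tested, 6 were lower in organoids and 0 higher, beside 5.49% and 5.43% of all genes. Those lower were Ccl5, Gzma, Lyz2, Gzmb, Cd3g and Cd52, so the list is not confined to myeloid cells. Lyz2 had crypt log2 intensities of 15.9 and 16.0, the highest of the list. The median log2 ratio of the 12 genes was -0.77. Averaged over the list, log2 intensity was 9.39 and 9.30 in the crypts and 8.18 and 8.16 in the organoids. Itgam, Cd52 and Cd3g were above background in 4 of 4 crypt channels and 0 of 4 organoid channels. They met the signal filter through the crypt channels alone, as did Cd8a, Ptprc, Gzmb and Gzma, whereas Cd79a met it through the organoid channels alone. The counts and median of this list may therefore partly follow from the filter. Ptprc, which marks all white blood cells, gave -0.70 ± 0.33 and did not pass. The myeloid marker Itgam gave -0.56 ± 0.38 and did not pass either (limma adjusted p = 0.112). The part of these cells in the Fut4 result was not tested. Fut7, which works on leukocyte selectin ligands, gave -0.15 ± 0.06 and did not pass.

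No other fucosyltransferase passed. Fut2, the secretor enzyme that puts the H antigen on intestinal mucins, gave -0.06 and -0.03 in the mice (mean -0.05 ± 0.02), with a 95% interval from -0.37 to 0.28. Its probe was dim, with crypt log2 intensities of 7.71 and 7.76, so the offset pulls this ratio and interval towards 0. The sign of Fut2 turned in the scanner's ratios and in the authors' matrix. Fut8, which adds core fucose to N-glycans, gave 0.13 ± 0.04, and Fut11 was the highest of the family at 0.26 ± 0.07. Fut4-ps1, a transcribed pseudogene under the RefSeq names, gave 0.10 ± 0.27. Fut1, Fut9 and Fut10 were not tested. Fut9, another Lewis x enzyme, had 6 probes and at most 1 of 8 channels above background on any of them.

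The ST3GAL sialyltransferases, which cap galactose, were the one family with a gene past the threshold in each direction. Of 6 names, 4 genes were tested. St3gal4 had crypt log2 intensities of 13.53 in mouse 1 and 13.18 in mouse 2 and organoid log2 intensities of 12.36 and 12.37. As with Fut4, the organoids of both mice were nearly equal and lay below both crypt samples. The log2 ratio was -1.17 and -0.82, a mean of -0.99 ± 0.25 (adjusted p = 0.0192) or 1.99-fold lower. A second probe gave -1.15, with -1.26 and -1.04 in the mice. St3gal4 passed in 8 of 11 alternative settings. The representative probe lies at chr9:34854434-34854493 in mm9.

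St3gal6 moved the other way. Crypt log2 intensities were 11.14 and 11.41, and organoid log2 intensities were 11.79 and 12.27, so both organoid samples exceeded both crypt samples. The log2 ratio was 0.65 in mouse 1 and 0.86 in mouse 2, a mean of 0.76 ± 0.15 (adjusted p = 0.0305), which is 1.69-fold higher. Its 4 arrays ranged from 0.64 to 0.98, and it passed in 7 of 11 alternative settings. ST3GAL4 and ST3GAL6 both sialylate lactosamine ends and take part in making sialyl Lewis x. The St3gal6 probe lies at chr16:58470722-58470781 in mm9. St3gal1, which caps core 1, gave -0.31 ± 0.11 and St3gal3 gave -0.25 ± 0.24, and neither passed. The family median was -0.28, with -0.16 in mouse 1 and -0.41 in mouse 2. It ranged from -0.49 in the authors' matrix to -0.12 without the filter on dim probes. St3gal2, with at most 5 of 8 channels above background, and St3gal5, the GM3 synthase, with at most 4 of 8, were not tested.

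The ST6GAL and ST6GALNAC sialyltransferases had 8 names and 4 tested genes, and 0 passed. St6gal2 was the highest at 0.11 ± 0.29, with mice of opposite sign, and St6gal1, which sialylates N-glycans, was the lowest at -0.05 ± 0.06. St6galnac2, which acts on core 1 and on its precursor, gave 0.10 ± 0.06 on its brightest probe and -0.06 and -0.05 on the other 2 probes. St6galnac6 gave 0.02 ± 0.08 on its brightest probe and 0.05 and 0.32 on the other 2 probes. St6galnac1, St6galnac3, St6galnac4 and St6galnac5 were not tested.

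**Figure D3:**
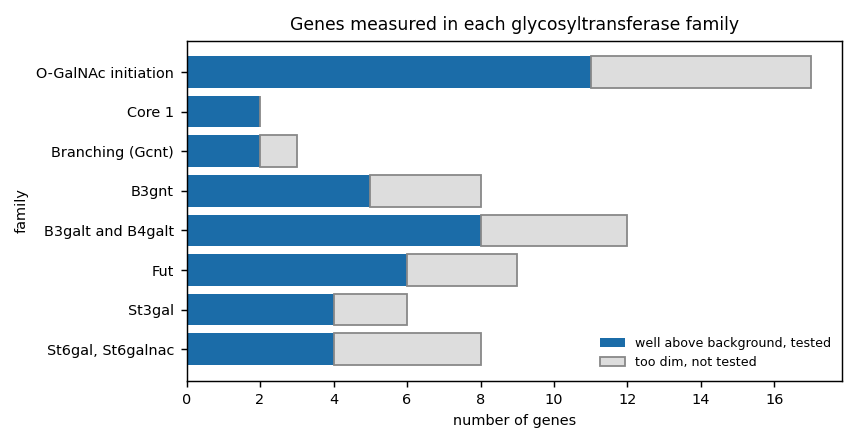
Number of glycosyltransferase genes on the array in each family, split into those tested (blue) and those too dim to test (grey). Initiation has the most genes, with 11 of 17 tested, and both core 1 genes were tested.

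Each of the 42 tested was well above background in all 8 channels, so none was measured in 1 tissue alone. Of the 23 not tested, 11 were above background in 0 of 8 channels on every probe. The other 12 reached at most 5 channels. No member probe was saturated or carried an outlier mark. A gene that was not well above background may still be expressed below what these arrays can show. Of 17 genes with several tested probes, the 21 other probes differed from the representative by a median of 0.144, and 5 of the 21 had the opposite sign. Those 5 belonged to C1galt1, B4galt1, Galnt7 and St6galnac2, none of which passed.

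**Figure D4:**
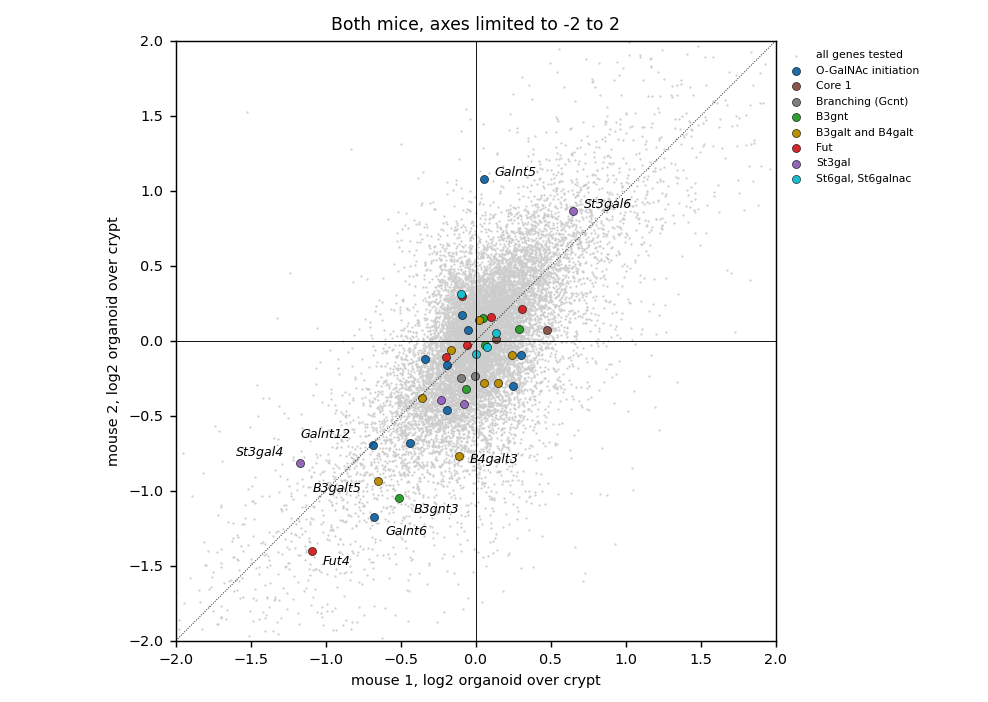
Log2 ratio of organoid over crypt in mouse 1 (x) and mouse 2 (y) for all genes tested (grey) and the 42 glycosyltransferase genes (coloured by family), with a dotted line of equality and axes from -2 to 2, which leave out 269 of the grey genes. Galnt5, B4galt3, B3gnt3 and Galnt3 are the genes more than 0.5 apart between the mice.

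The mice differed by more than 0.5 on the log2 scale for 4 of the 42 genes, Galnt5, B4galt3, Galnt3 and B3gnt3. For the 42 genes the median gap between the mice was 0.222, beside 0.208 for all genes. The ratio was lower in mouse 2 than in mouse 1 for 27 of them (64.3%), beside 49.9% of all genes.

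Enzymes need sugar donors and acceptors, and both were read from separate lists. Of 26 tested genes that make donor sugars or carry them into the Golgi, 1 was higher and 0 lower. Of all genes, 5.43% were higher and 5.49% lower. The list's median was -0.10. That median turned above 0 with arrays centred on the median (0.09) and with the organoid in Cy3 alone. Galk1, the galactokinase that lets free galactose enter the pathway, gave 0.72 and 0.60 in the mice, a mean of 0.66 ± 0.09 (adjusted p = 0.0385). Along the sialic acid route, Gne, the first enzyme of its synthesis, gave -0.21 ± 0.04. Cmas, which activates sialic acid, gave 0.09 ± 0.42, and Slc35a1, which brings the activated sugar into the Golgi, gave 0.19 ± 0.17. None of these 3 passed. Nans and Nanp, on the same route and named after their values were seen, gave -0.43 ± 0.03 and 0.31 ± 0.12 and did not pass.

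Mucins are the main acceptors of these chains. Of 8 tested, 3 were lower and 0 higher, beside 5.49% and 5.43% of all genes. The 3 became 0 with arrays centred on the median, and the list's median of -0.35 became 0.01 without the filter on dim probes. Muc3, a membrane mucin of enterocytes, gave -2.11 and -2.93 in the mice (mean -2.52 ± 0.58, adjusted p = 0.00498). Muc13, also membrane-bound, gave -1.56 and -1.58 (mean -1.57 ± 0.01, adjusted p = 0.00425). Muc2, the gel-forming mucin of goblet cells, gave -1.70 and -0.80 (mean -1.25 ± 0.63, adjusted p = 0.0336).

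Among 28 other genes of Golgi glycosylation, 2 were higher and 4 lower, beside 5.43% and 5.49% of all genes. The list's median was about 0 (-0.00). Man2a2, a mannosidase that trims N-glycans, rose by 1.52 ± 0.26 (adjusted p = 0.00661). B4galnt4, which makes N-acetylgalactosamine-terminated lactosamine-like ends, rose by 0.79 ± 0.02 (adjusted p = 0.0232). Gal3st2, a sulfotransferase acting on terminal galactose, gave -1.63 ± 0.32 (adjusted p = 0.00663), a larger drop than that of any of the 42 glycosyltransferases. B4galnt2, which makes the Sda antigen, gave -0.94 ± 0.11 (adjusted p = 0.0161). B4galnt1, the GM2 synthase, gave -0.85 ± 0.01 (adjusted p = 0.0191), and Mgat1, which opens the way to complex N-glycans, gave -0.60 ± 0.02 (adjusted p = 0.0467).

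**Figure D5:**
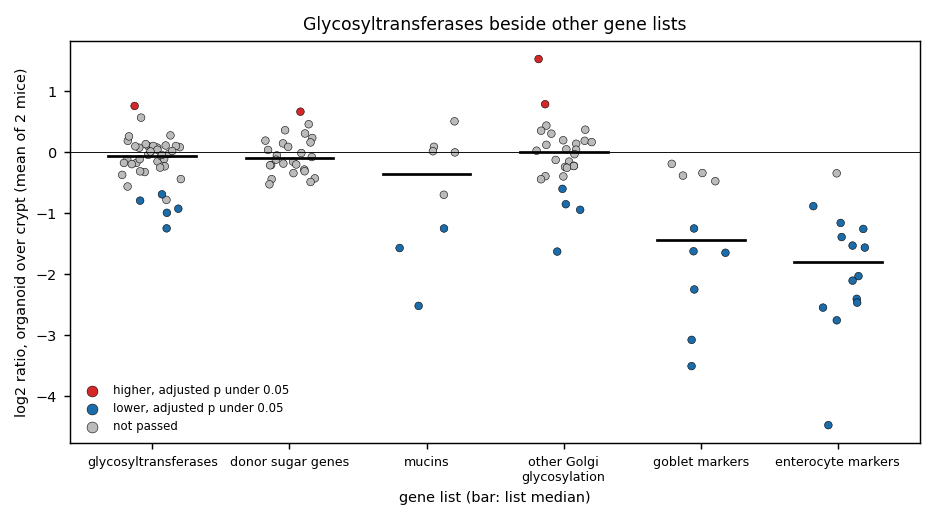
Log2 ratio of organoid over crypt (mean of the mice) for each tested gene of 6 lists, with a bar at the list median, red for higher and blue for lower at an adjusted p under 0.05, and grey for genes that did not pass; points are spread sideways for legibility. The medians of the glycosyltransferases and donor sugar genes are -0.06 and -0.10, those of goblet and enterocyte markers -1.44 and -1.80.

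Markers of other cell types were read beside these results, and of all genes tested 5.43% were higher and 5.49% lower. Of 14 enterocyte markers 13 were lower (median -1.80), as were 6 of 10 goblet (-1.44) and 7 of 7 Paneth cell markers (-1.90), with 0 higher in any of the 3 lists. Averaged over the lists, log2 intensity in crypts against organoids was 15.02 and 14.86 against 13.15 and 12.90 for enterocytes. It was 14.67 and 14.76 against 13.07 and 13.42 for goblet cells, and 15.93 and 14.98 against 13.61 and 13.11 for Paneth cells. The Paneth averages of mouse 2 are lowered by Pla2g2a. Its crypt log2 intensities were 16.0 in mouse 1 and 10.5 in mouse 2, and its organoid log2 intensities 14.1 and 8.9. Stem cell markers had 2 of 9 higher and 0 lower (median 0.40), and 0 of 7 tuft and 1 of 8 enteroendocrine markers passed, the last lower. Of 3 stromal genes tested, 1 was lower, with a median of -0.00. In tissue measured in bulk, fewer cells of a type and less RNA per cell cannot be told apart, and the part of these cell types in the 6 glycosyltransferase results was not tested.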

How the data were processed

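RNA of crypts and organoids of 2 mice was measured on 4 two-colour Agilent arrays, labelled from 500 ng of RNA per the labels' protocols. The deposited scanner files hold intensity values per spot, read with Feature Extraction 10.2.1.3 per the file headers (9.5.3 per the submitters' processing notes). They also hold the scanner's deposited log10 ratio of Cy5 over Cy3. The authors' deposited matrix holds log2 ratios with column medians of 0 that correlated with the scanner ratios at r = 0.978 to 0.992 across probes. How they centred it is not given here. With limma 3.58.1 in R 4.3.3, mean signals were background-corrected (normexp, offset 50), normalized by loess with the 1639 control spots at weight 0, turned with the dye labels so that organoid is over crypt, and averaged over spots and over a mouse's arrays. Outlier-marked spots were left out. Tests took probes without a mark on any array whose signal was well above background in every channel of crypts or of organoids (21923 probes). The brightest stood for a gene (15538 genes, named through RefSeq for GRCm38.p6 where accessions matched). Intensities are log2 after scaling of average intensity between arrays. A test of the mouse means against 0 used lmFit and eBayes (two-sided, 1 residual and 4.16 prior degrees of freedom). The fit borrows its spread from all genes, and n = 2 limits the precision. Each gene that passed was named with each mouse's value, and each family's highest and lowest gene was named. Members, lists and this rule were chosen with earlier results of these data known. Probe positions are mm9 per the file headers; whether they are exonic or in a UTR was not analysed here.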

Additional observations from a re-analysis of the deposited data

Results flagged for a closer look

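St6gal1 had 1 array apart from the rest: mouse 2 with the organoid in Cy3 gave -0.20, whereas the other 3 arrays lay between -0.01 and 0.02. Of the 42 genes whose 4 arrays were checked for such a gap (arrays of a mouse share their RNA), 1 stood out, and chance marks about 1 in 20.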

How the results depend on the processing

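Of 11 alternative settings, all drawn from the same 4 arrays, none turned the direction of Fut4, St3gal4, Galnt6, B3galt5, Galnt12 or St3gal6. Fut4 passed in 9 of 11, B3galt5 and St3gal4 in 8, St3gal6 in 7, Galnt12 in 6 and Galnt6 in 5. These tallies include the dye effect and the random block, under which each of the 6 passed. The count of genes higher became 0 with median centring, with the scanner's ratios, with the authors' matrix and without the filter on dim probes. The count lower was 0 with median centring, 2 with the scanner's ratios, 3 with the matrix, 1 without the filter, 2 with the organoid in Cy3 alone and 8 with a dye effect fitted to 4 arrays. Of all genes, 224 passed with median centring and 677 without the filter, against 1697 as reported, and 3709 with the dye effect and 3080 with a random block for the mouse, both of which count arrays. The cause of these differences was not tested. The members' median was 0.0533 with median centring, -0.0178 without the filter and -0.0231 with the organoid in Cy5 alone. It was -0.1042 without mouse 1 and -0.0644 without mouse 2; 1 mouse alone leaves no test. Donor sugar genes that passed were 0 with median centring, the scanner's ratios, the matrix, no filter and Cy5 alone, and 5 with the dye effect and with the random block. Mucins that passed were 0 with median centring. The other Golgi genes numbered 1 with median centring and 3 with Cy3 alone. A block for slide or scan time was not run, since there is 1 of each. The reported test is itself paired, since it takes ratios within each mouse. Signal over background limited the study to 42 of 65 genes.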
